A study of Homo sapiens with 12 samples.

Results

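ATAC-seq, in which a transposase inserts sequencing adapters into open DNA, was used here to read chromatin accessibility at 10 genes of Wnt signalling and of the intestinal stem cell: LGR5, LGR4, ASCL2, SOX9, AXIN2, RNF43, ZNRF3, TCF7, TCF7L2 and LEF1. A gene locus was taken as the gene body of the GENCODE version 44 annotation (build hg38) extended by 20 kb on either side, and every region of the deposited count table that overlapped it was a member. Of the 30170 regions in the table, 27 lay at 8 of the 10 genes, and LGR5 and LEF1 had none. The cells were HCT116, an established line from a human colorectal carcinoma that carries an activating mutation of the β-catenin gene. There were 4 groups of 3 libraries. HCT116 EV carried empty vector, the EHF and CDX1 lines had the ETS-family factor EHF or the caudal homeobox factor CDX1 put back alone, and the EHF+CDX1 line had both. Per the study's methods, EHF or its empty vector entered on a plasmid and geneticin-resistant clones were isolated, whereas CDX1 entered by retrovirus and GFP-positive cells were sorted. The double line was the CDX1 line transfected with EHF and put through the same geneticin selection, which the CDX1 line had not been. The particular clones and EHF cannot be told apart, nor can virus and CDX1 in a comparison with EV. Both factors were driven by their vectors. The sources used here do not say whether the 3 libraries of a group came from separate cultures, so that p-values measure only the spread between these libraries, which may be technical.

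Wnt ligands bind Frizzled receptors and stop a destruction complex, built on the scaffolds APC and AXIN, from degrading β-catenin, which then enters the nucleus and activates genes together with the DNA-binding factors TCF7, TCF7L2 and LEF1. R-spondins strengthen the signal through the receptors LGR4 and LGR5, because they hold back RNF43 and ZNRF3, a pair of membrane ubiquitin ligases that take Frizzled off the cell surface. In the intestinal crypt this signal maintains the stem cells, in which LGR5 is a marker, ASCL2 is a stem cell transcription factor, and SOX9 is made in stem and progenitor cells. AXIN2, RNF43, ZNRF3 and LGR5 are themselves targets of the pathway. EHF and CDX1 are transcription factors of the intestinal epithelium, and the comparisons ask whether accessibility at these genes differed once either or both were put back.

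The total count ranged from 567366 to 2443334 per library. Much of it came from the introduced sequences: the 8 regions over EHF exons held 543188 to 1536042 counts in the EHF libraries and 30 to 100 in EV and CDX1, and the 3 over CDX1 exons held 524981 to 1916479 in the CDX1 libraries and 18 to 104 in EV and EHF. In the EHF+CDX1 libraries these were 91907 to 759842 and 77147 to 545352, so that each library held the factors its label names. Regions outside these exons and outside mitochondrial matches held 148300 to 912672 counts, with a median of 22 per region in EHF+CDX1 replicate 2 against 2 to 11 in the other libraries. The 10 genes together held 3014 counts over the 12 libraries, 89 to 662 in each, and the mean of a member region was 2.67 to 22.7 counts. At this depth 3 counts, the limit that a count of 0 allows, correspond to 0.677 CPM in the deepest library and 4.51 CPM in the shallowest, where CPM is the usual count relative to library size, here scaled by TMM factors. Intervals and limits on counts cover counting error only. None of the 27 regions lay over an introduced exon or matched mitochondrial DNA. Of the epithelial markers 5 of 6 had a region at their start (CDH1 did not), and these summed to 31.8 to 45 CPM in EV and 52.8 to 76.7 CPM in EHF+CDX1, with EHF and CDX1 at 39.4 to 57.6. This sum was thus higher in every EHF+CDX1 library than in EV, and its part in the results below was not tested. Of the blood cell markers CD68 had a region at its start, at 0.0 to 5.19 CPM, and PTPRC, CD3E and SPI1 had none. Fibroblast markers had a start region for 2 of 5 genes (none for COL3A1, PDGFRB and THY1) at 9.14 to 19.2 CPM over the 12 libraries.

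The regions fell into 3 kinds. There were 9 within 1 kb of a member's own start, 5 at the start of a neighbouring gene (CCDC34 beside LGR4, SUPT4H1 beside RNF43, KREMEN1 and ZNRF3-AS1 at ZNRF3) and 13 away from any start. The sequences of 5 regions away from starts are printed because these were the member regions with an unadjusted edgeR p under 0.05 in EHF+CDX1 against EV. Of these, 3 are in introns of LGR4, at chr11:27401801-27401951, chr11:27397733-27397883 and chr11:27395697-27395847. The others are in an intron of RNF43 at chr17:58377831-58377981 and in an intron of TCF7L2 at chr10:113069703-113069853. All are the plus strand of hg38, 5′ to 3′, first and last base included, and capitals mark a CDX core (TTTATG or TTTATT), an ETS core (AGGAAGT or CGGAAGT) or a TCF core (CTTTGAA or CTTTGAT), each searched on both strands.
LGR4 intron, 70.9 kb from its start: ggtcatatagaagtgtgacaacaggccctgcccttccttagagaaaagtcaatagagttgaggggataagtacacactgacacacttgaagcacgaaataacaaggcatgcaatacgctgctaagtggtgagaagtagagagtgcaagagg
LGR4 intron, 75 kb from its start: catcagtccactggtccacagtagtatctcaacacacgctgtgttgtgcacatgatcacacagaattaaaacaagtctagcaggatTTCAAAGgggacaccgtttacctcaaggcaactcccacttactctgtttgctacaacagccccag
LGR4 intron, 77 kb from its start: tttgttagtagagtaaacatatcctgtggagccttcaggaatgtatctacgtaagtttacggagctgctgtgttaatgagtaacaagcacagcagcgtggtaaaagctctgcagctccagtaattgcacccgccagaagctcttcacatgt
RNF43 intron, 39.7 kb from its start: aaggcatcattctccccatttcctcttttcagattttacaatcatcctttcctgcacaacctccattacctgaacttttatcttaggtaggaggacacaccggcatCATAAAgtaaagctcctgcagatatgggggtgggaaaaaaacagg
TCF7L2 intron, 119.5 kb from its start: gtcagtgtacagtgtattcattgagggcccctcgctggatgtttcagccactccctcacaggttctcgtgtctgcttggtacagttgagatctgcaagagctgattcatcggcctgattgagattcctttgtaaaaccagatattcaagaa
The capitals in the LGR4 sequence at 75 kb are a TCF core read on the other strand, and those in the RNF43 sequence are a CDX core read on the other strand. No ETS core and no overlap between the 3 motifs occurred in these 5 sequences. Among the 16 member regions of the shortest span a TCF core was found in 3 (18.8%) against 6.29% of the 17342 regions of that span in the table, a CDX core in 1 (6.25%) against 17.9%, and an ETS core in 0 against 8.2%. Over all spans a TCF core was in 5 of 27 member regions (18.5%) against 5.77% of 29967 regions, a CDX core in 4 (14.8%) against 15.3% and an ETS core in 1 (3.7%) against 10.4%. The regions with a TCF core lay at AXIN2, LGR4, ZNRF3-AS1, RNF43 and TCF7L2. The GC content of the 13 member regions away from starts had a median of 47% and a range of 40 to 75.5%, against a median of 61.3% at own starts and 56.3% over all regions. A match to these letters is a description of the sequence and not of binding.

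In HCT116 EV, levels per kilobase of region were highest at SOX9 (49.1 ± 13.7 CPM per kb, SD, n = 3) and TCF7L2 (43.2 ± 8.48), followed by TCF7 (32.7 ± 12.3), LGR4 (31.8 ± 12.2), RNF43 (21.4 ± 6.19), ZNRF3 (20.9 ± 7.68), AXIN2 (18 ± 12.5) and ASCL2 (9.75 ± 5.02). Each neighbouring pair in this order overlapped in its 3 libraries. The ends of the order did not: the lowest SOX9 library was at 36.4 and the highest ASCL2 library at 14.6 CPM per kb. These levels follow the table's regions and not expression.

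When counts were pooled per locus, no member passed the test in any of 6 comparisons. The test was edgeR's quasi-likelihood test over 14508 protein-coding loci with Benjamini-Hochberg adjustment and a threshold of 0.05. Of all loci, 2.03% were called in EHF+CDX1 against EV, 0.00689% in EHF against EV, 0.0207% in CDX1 against EV, 1.9% in EHF+CDX1 against EHF, 1.45% in EHF+CDX1 against CDX1 and 0.0% for the interaction, which asks whether the effect of both factors differs from the sum of the single effects on the log2 scale. With 8 loci at these rates, a count of 0 is near the background. At an unadjusted p under 0.05 the 6 comparisons gave 0, 1, 0, 2, 1 and 2 of the 8 loci. The shares over all loci at that p were 17.5, 4.69, 2.63, 15.2, 16.5 and 7.6%. With DESeq2, the other count tool, 0 of 8 loci were called in each. The 8 loci had a median log2 difference between EHF+CDX1 and EV of 0.26, beside 0.16 over all loci. Of the 8, 5 were above 0, beside 59.7% of all loci.

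**Figure D1:**
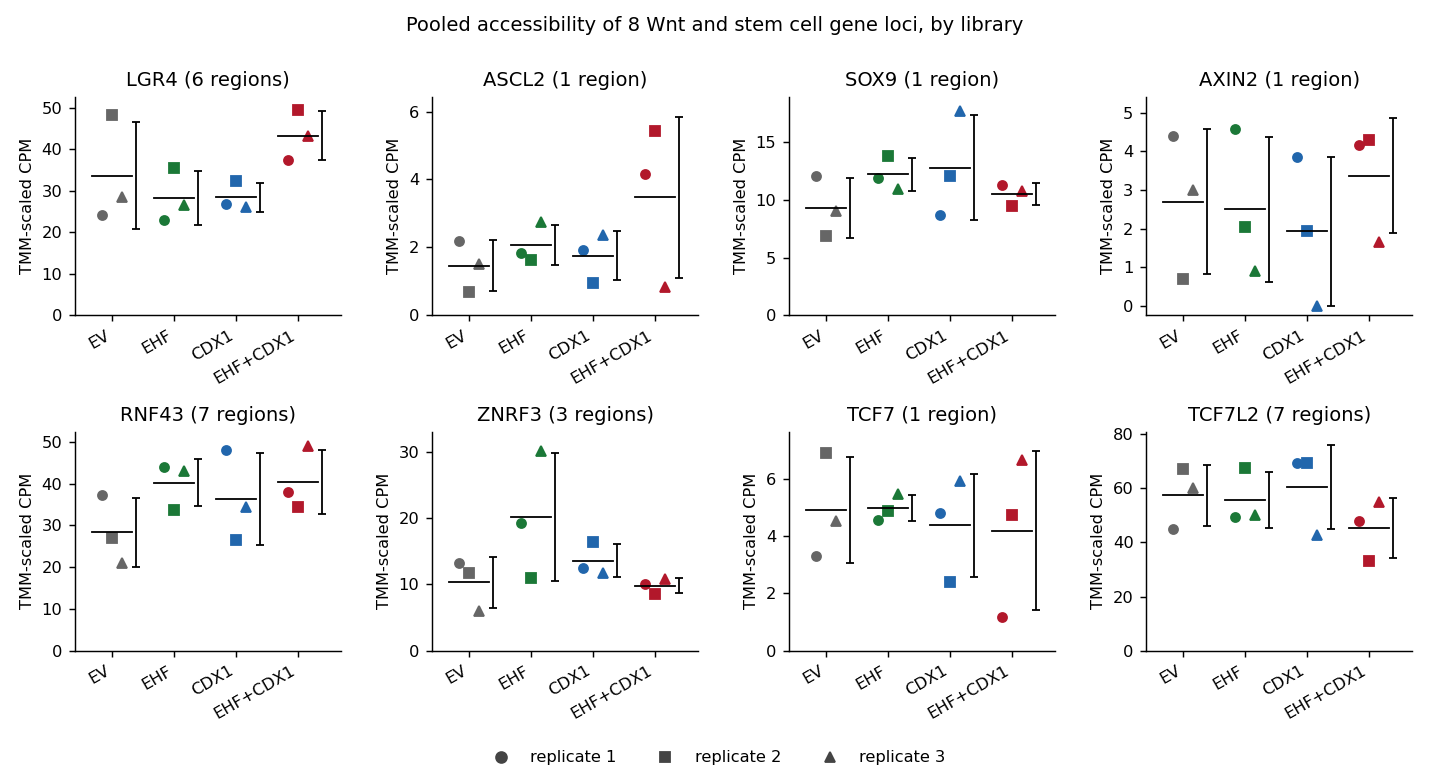
Each panel plots the counts of one locus pooled over its regions, as TMM-scaled CPM, in the 3 libraries of HCT116 EV, EHF, CDX1 and EHF+CDX1. Symbols are libraries, horizontal lines group means and bars 1 SD. The groups overlap in most panels, and at LGR4 the 3 EHF+CDX1 libraries (37.4 to 49.4 CPM) lie above the EHF and CDX1 libraries.

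**Figure D2:**
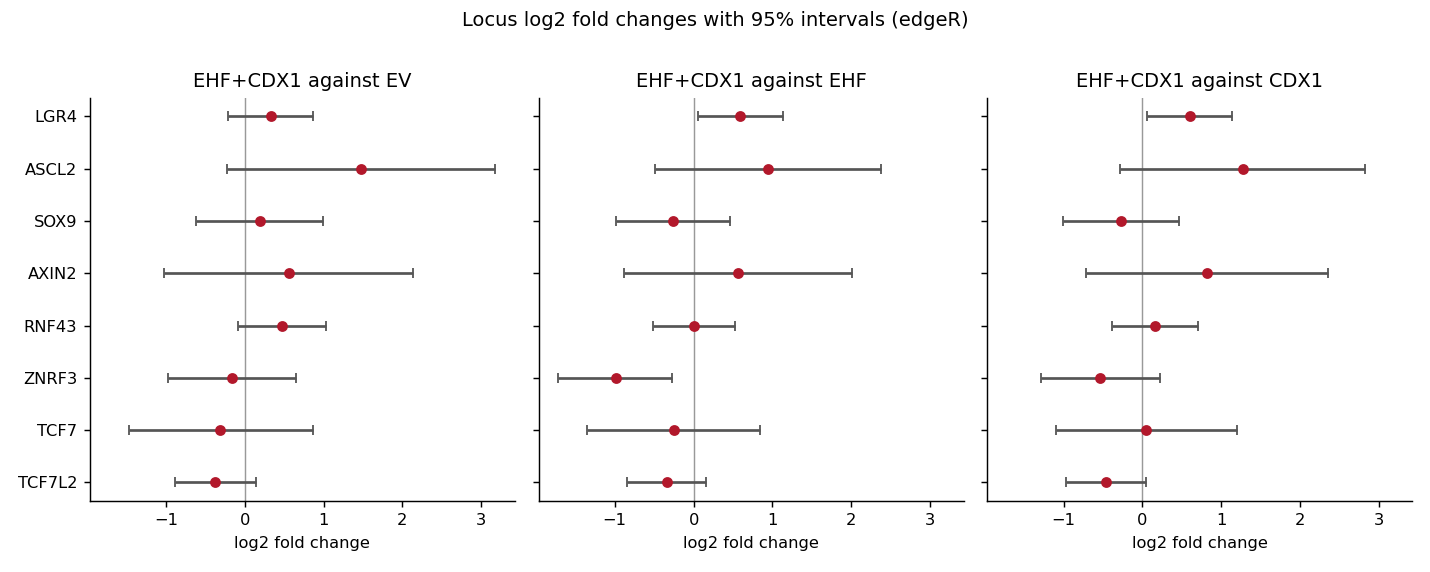
Points are edgeR log2 fold changes of the 8 loci in EHF+CDX1 against each other group and bars their 95% intervals. In the comparison with EV all 8 intervals cross 0. Against EHF those of LGR4 (0.06 to 1.13) and ZNRF3 (-1.72 to -0.27) do not, and against CDX1 that of LGR4 (0.06 to 1.14) does not. None of these differences passed the adjusted test.

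Tested one by one, 1 of the 27 regions was called, in 1 of 6 comparisons. It lay in the LGR4 intron at 70.9 kb and was higher in EHF+CDX1 than in EHF, where 4.35% of the 30154 regions tested were called, so that 1 of 27 is near the background. The other comparisons called 0 of 27 member regions, beside 2.57% of all regions in EHF+CDX1 against EV, 0.00995% in EHF against EV, 0.0% in CDX1 against EV, 2.6% in EHF+CDX1 against CDX1 and 0.123% for the interaction. At an unadjusted edgeR p under 0.05 there were 5, 0, 0, 3 and 2 member regions in these 5 comparisons. The shares over all regions at that p were 19.0, 4.96, 3.81, 17.5 and 9.88%. DESeq2 called 0 member regions in each of these comparisons. In EHF+CDX1 against EV the share at that p was 18.5% of member regions and 19.0% of all regions. All 27 had passed the filter on low counts (at least 3 CPM, before TMM scaling, in 1 library), 2 of them through EHF+CDX1 replicate 2 alone. These were the LGR4 intronic region at 75 kb and the RNF43 intronic region at 39.7 kb. A high value in EHF+CDX1 was thus a condition of their being tested, and their values are a description.

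LGR5, the stem cell marker receptor on chromosome 12 (71439798 to 71586310), had no region. The region nearest to its body lay 77602 bases away, at the starts of THAP2 and ZFC3H1, and differed by -0.03 (log2, adjusted p = 0.98, edgeR) between EHF+CDX1 and EV. Accessibility at LGR5 itself was thus not measured by this table in any group, which does not show that the gene was closed.

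LGR4, the R-spondin receptor of broader expression, lies on chromosome 11 (27365961 to 27472790, minus strand) and had 6 regions and 703 counts. Its pooled level was 24.1, 48.4 and 28.6 CPM in EV, 22.9, 35.4 and 26.5 in EHF, 26.9, 32.3 and 26 in CDX1, and 37.4, 49.4 and 43.2 in EHF+CDX1. The 3 EHF+CDX1 libraries lay above every EHF and CDX1 library and overlapped EV through EV replicate 2. Against EHF the difference was 0.59 ± 0.27 (log2 fold change ± SE, edgeR, adjusted p = 0.28), against CDX1 0.60 ± 0.28 (adjusted p = 0.27) and against EV 0.33 ± 0.28 (adjusted p = 0.56). None of these passed the threshold. The interaction at LGR4 was 0.87 ± 0.40 with an adjusted p of 0.61.

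Within the LGR4 locus the group means at the start and in the introns were in different orders. At the start the first place of EV rested on EV replicate 2, at 32.5 CPM beside 13.2 and 10.5 CPM in EV replicates 1 and 3. The region at the LGR4 start, which it shares with the antisense gene LGR4-AS1, was highest in EV with 18.7 ± 12 CPM (SD, n = 3), followed by EHF+CDX1 with 14.4 ± 2.67, EHF with 12.8 ± 2.36 and CDX1 with 11.4 ± 2.77, and the groups overlapped. The 4 intronic regions together held 5, 6 and 4 counts in EV, 1, 14 and 4 in EHF, 2, 12 and 5 in CDX1, and 18, 124 and 20 in EHF+CDX1. Scaled, the EHF+CDX1 libraries were at 10.7, 28.0 and 16.6 CPM, all above the highest of the other 9 libraries, at 6.01 CPM. Leaving out EHF+CDX1 replicate 2 could not change this order for the remaining pair, so it is no check on it. The sum includes the region at 75 kb, which passed the filter through EHF+CDX1 replicate 2 alone. For that region a high value in EHF+CDX1 was a condition of its being tested. This grouping of the 4 regions was made after their values were seen and is a description with no test. Among all 5772 loci with regions away from starts, 6.08% had every EHF+CDX1 library above the other 9, and among the 256 loci with 4 such regions it was 10.9%, so that LGR4 shared this order with many loci of the table. Of the 4 member loci with such regions (LGR4, ASCL2, RNF43 and TCF7L2), 1 had it, LGR4. The introns supplied 28.6, 56.6 and 38.5% of the LGR4 locus counts in the EHF+CDX1 libraries and 4.0 to 22.7% in the other 9. In EHF+CDX1 replicate 1 the 95% Wilson interval of 18.9 to 40.7% overlapped those of libraries in the other groups, whose counts were small. The interval of EHF+CDX1 replicate 3 overlapped some of them too. Only that of EHF+CDX1 replicate 2 lay above the intervals of all 9 libraries of the other groups.

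**Figure D3:**
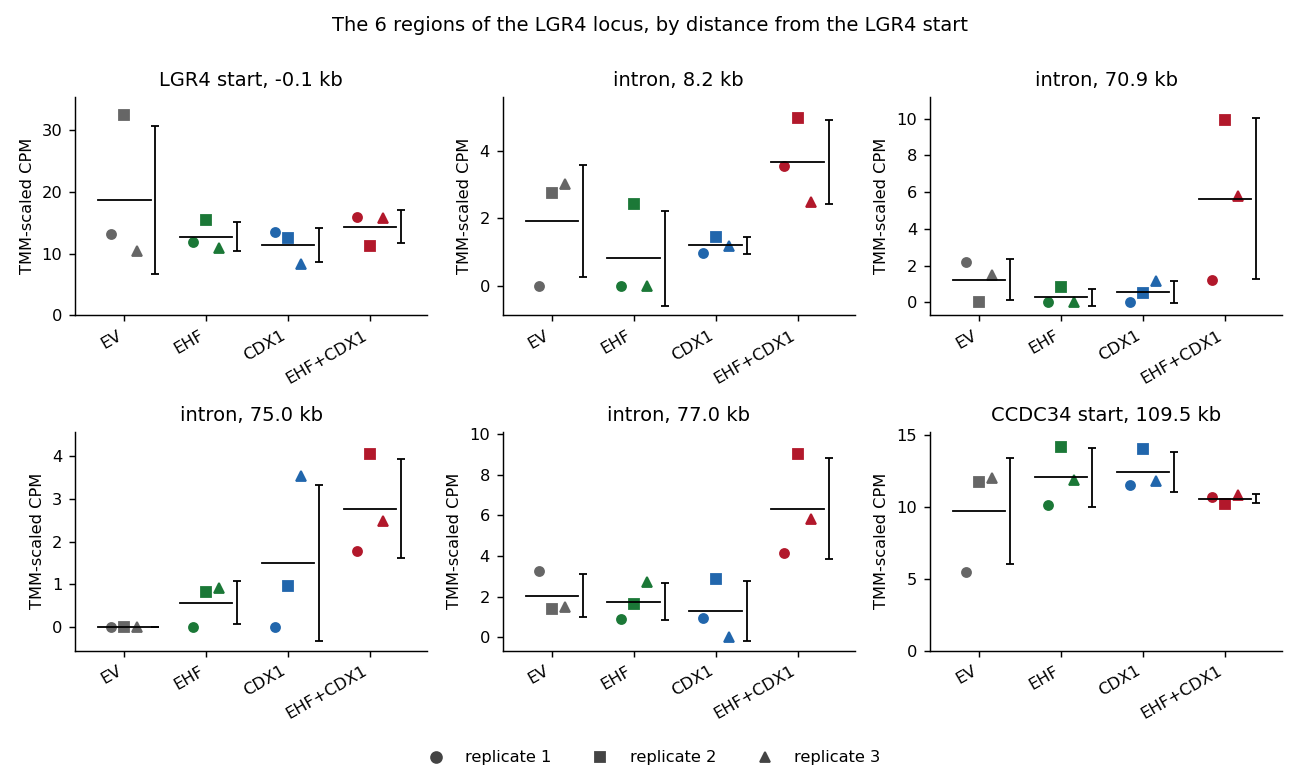
Each panel is one region of the LGR4 locus, titled by its distance from the LGR4 start, with TMM-scaled CPM in the 12 libraries, group means as lines and bars of 1 SD. In the 4 intronic regions the EHF+CDX1 means are the highest of the 4 groups. The region at 75 kb passed the filter through EHF+CDX1 replicate 2 alone. At the LGR4 and CCDC34 starts the EHF+CDX1 means are not the highest. At the LGR4 start the first place of EV rests on EV replicate 2 (32.5 CPM).

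**Figure D4:**
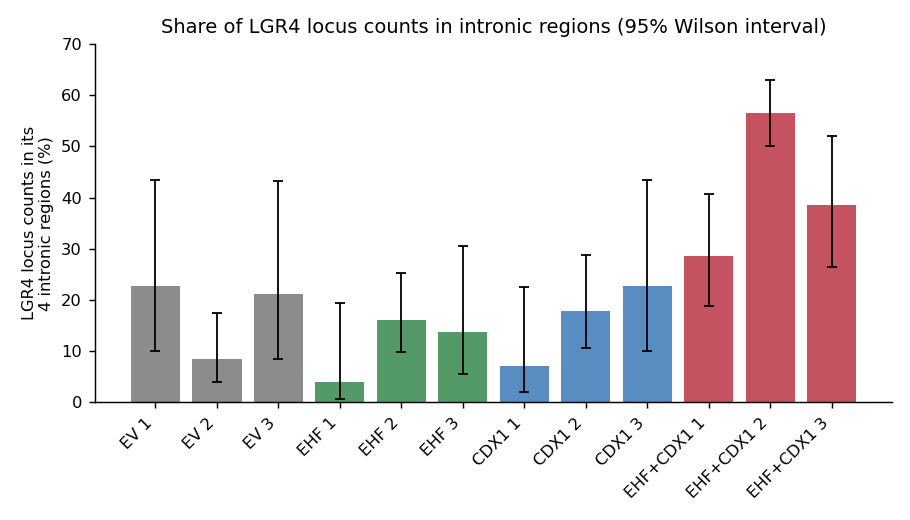
Bars give the percentage of LGR4 locus counts that fell in its 4 intronic regions in each library, with 95% Wilson intervals. The EHF+CDX1 bars stand at 28.6, 56.6 and 38.5%, and those of the other 9 libraries between 4.0 and 22.7%. The intronic region at 75 kb, included in these shares, passed the filter through EHF+CDX1 replicate 2 alone.

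The called region at 70.9 kb had 2, 0 and 1 counts in EV, 0, 2 and 0 in EHF, 0, 1 and 1 in CDX1, and 2, 44 and 7 in EHF+CDX1. Most of its signal was thus 1 library, EHF+CDX1 replicate 2, and EHF+CDX1 replicate 1 lay within the range of EV. The log2 fold change against EHF was 3.64 ± 1.02 (edgeR adjusted p = 0.02), and it ran from 2.78 without EHF+CDX1 replicate 2 to 6.19 without EHF replicate 2. It was 3.36 ± 1.03 against CDX1 (adjusted p = 0.052) and 2.42 ± 0.98 against EV (adjusted p = 0.15). From pooled counts of 53 against 2, the ratio to EHF was 16.8, with a counting interval of 4.43 to 143. The call was lost without EHF+CDX1 replicate 2 (adjusted p = 0.39), without EHF replicate 1 (0.077) and without EHF replicate 3 (0.082), and under DESeq2 (0.15), voom with quantile normalisation (0.16) and scaling by library size alone (0.067).

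The LGR4 intronic region at 77 kb was 1 of 2 member regions in which every EHF+CDX1 library lay above the other 9, which held for 5.32% of all regions and 7.41% of member regions. The other of the 2 was the RNF43 region that passed the filter through EHF+CDX1 alone. Its counts were 3, 2 and 1 in EV, 1, 4 and 3 in EHF, 1, 6 and 0 in CDX1, and 7, 40 and 7 in EHF+CDX1, and its log2 fold change against EV was 1.68 ± 0.75 (edgeR adjusted p = 0.20). The region at 75 kb, which carries the TCF core, held no count in any EV library and 3, 18 and 3 counts in EHF+CDX1. It did not pass the test against EV (edgeR adjusted p = 0.11). CDX1 replicate 3, at 3.55 CPM, lay among the EHF+CDX1 libraries (1.78 to 4.06 CPM). The intronic region nearest to the LGR4 start, at 8.2 kb, had 0, 4 and 2 counts in EV and 6, 22 and 3 in EHF+CDX1, and these overlapped once scaled. This region, the one at 75 kb and the RNF43 intronic region at 39.7 kb are described after their values were seen. Since the nuclei of a library are pooled, more open nuclei and more cuts per nucleus cannot be told apart at these regions.

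RNF43, the membrane ubiquitin ligase on chromosome 17 (58353676 to 58417595, minus strand), had 7 regions and 674 counts. Pooled levels were 37.3, 26.9 and 21 CPM in EV, 43.9, 33.7 and 43 in EHF, 48.1, 26.5 and 34.3 in CDX1, and 38, 34.3 and 49 in EHF+CDX1. EV had the lowest mean, and every other group overlapped it. The log2 fold change was 0.47 ± 0.29 in EHF+CDX1 against EV (adjusted p = 0.39) and 0.47 ± 0.29 in EHF against EV (adjusted p = 0.99), with a 95% interval of -0.09 to 1.03 for the double line. The pair of regions at the RNF43 start, also the start of an unnamed gene, summed to 7.69 ± 3.23 CPM in EV and 10.7 ± 0.667 in EHF+CDX1, and singly they differed by 0.57 ± 0.58 and 0.29 ± 0.62 (log2, edgeR adjusted p = 0.62 and 0.84). The intronic region at 39.7 kb, which carries the CDX core, was the other member region with all EHF+CDX1 libraries above the other 9. It had 0, 1 and 0 counts in EV, 0, 2 and 1 in EHF, 2, 0 and 1 in CDX1, and 5, 19 and 3 in EHF+CDX1. It did not pass the test against EV (edgeR adjusted p = 0.20). The intronic region at 25.9 kb, with a TCF core, had 5.18 ± 6.22 CPM in EV and 5.02 ± 0.303 in EHF+CDX1.

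ZNRF3, the related ligase on chromosome 22 (28883572 to 29057488), had 3 regions and 239 counts. Its pooled level was 13.2, 11.7 and 6.01 CPM in EV, 19.2, 11 and 30.2 in EHF, 12.5, 16.4 and 11.8 in CDX1, and 10.1, 8.58 and 10.8 in EHF+CDX1. The EHF+CDX1 libraries lay below every EHF and every CDX1 library and within the range of EV. Against EHF the difference was -0.99 ± 0.37 (log2 ± SE, adjusted p = 0.17) and against CDX1 -0.54 ± 0.38 (adjusted p = 0.51), neither of which passed. The difference against CDX1 changed sign, to 0.56, when the regions at the starts of KREMEN1 and ZNRF3-AS1 were left out, and to 0.05 when libraries were scaled by size alone. At the ZNRF3 start alone the counts were 6, 6 and 1 in EV, 8, 8 and 17 in EHF, 3, 2 and 3 in CDX1, and 5, 9 and 7 in EHF+CDX1. The EHF mean there was 8.70 ± 6.26 CPM, and EHF replicate 3 held 17 of its 33 counts. KREMEN1, at whose start the third region lies, encodes a receptor of the Wnt inhibitor DKK1. For the ZNRF3 locus the interaction was -1.37 ± 0.56, with an unadjusted p of 0.018 and an adjusted p of 0.51 (edgeR), and it ranged from -1.74 to -0.04 over 23 alternatives.

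AXIN2, the scaffold of the destruction complex and a feedback target of the pathway, had 1 region, at its start on chromosome 17 (65561111 to 65561261). Counts were 4, 1 and 2 in EV, 5, 5 and 1 in EHF, 4, 4 and 0 in CDX1, and 7, 19 and 2 in EHF+CDX1. All 4 groups overlapped, and EHF+CDX1 differed from EV by 0.56 ± 0.81 (log2, edgeR adjusted p = 0.75). The 95% interval of -1.03 to 2.14 is wide because the region held 54 counts over 12 libraries.

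TCF7, one of the β-catenin partners on the DNA, had 1 region just before its start on chromosome 5 (134114504 to 134114654). It held 3, 10 and 3 counts in EV, 5, 12 and 6 in EHF, 5, 5 and 5 in CDX1, and 2, 21 and 8 in EHF+CDX1. The groups overlapped, and the difference between EHF+CDX1 and EV was -0.31 ± 0.59 (log2, adjusted p = 0.82, interval -1.47 to 0.86). LEF1, the third of these factors, on chromosome 4 (108047545 to 108168956), had no region. The nearest lay 57676 bases from its body, at the start of HADH, and differed by -0.20 (log2, adjusted p = 0.82, edgeR) between EHF+CDX1 and EV.

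TCF7L2, the β-catenin partner that predominates in intestinal epithelium, had the most counts, 999 over 7 regions on chromosome 10 (112950247 to 113167678). Pooled levels were 45, 67 and 60.1 CPM in EV, 49.4, 67.5 and 50.3 in EHF, 69.2, 69.5 and 42.6 in CDX1, and 48.1, 33.2 and 54.8 in EHF+CDX1. EHF+CDX1 had the lowest mean, 45.4 ± 11.1 CPM (SD, n = 3) against 57.4 ± 11.3 in EV, and overlapped every other group. The log2 fold change was -0.38 ± 0.26 against EV (edgeR adjusted p = 0.47), -0.34 ± 0.26 against EHF (adjusted p = 0.56) and -0.46 ± 0.26 against CDX1 (adjusted p = 0.37). The pair of regions at its start summed to 15.7 ± 7.23 CPM in EV and 11.4 ± 1.80 in EHF+CDX1. Of its 5 intronic regions, that at 119.5 kb had the lowest adjusted p of any member region in EHF+CDX1 against EV, 0.08, at -1.92 ± 0.64. It held 3, 15 and 6 counts in EV, 5, 13 and 4 in EHF, 1, 23 and 2 in CDX1, and 0, 11 and 4 in EHF+CDX1. Scaled, the highest EHF+CDX1 library (3.32 CPM) was level with the lowest EV library (3.29 CPM). It passed the threshold narrowly without EHF replicate 2 or without EHF+CDX1 replicate 3, and its adjusted p was 0.4 without EV replicate 2. The intronic region at 123.7 kb was second, with -1.22 ± 0.69 (adjusted p = 0.32) and 2, 11 and 3 counts in EV against 7, 2 and 4 in EHF+CDX1.

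The regions around TCF7L2 were also lower in the double line. The 67 regions within 2 Mb of the TCF7L2 body, its own locus left out, summed to 401, 665 and 418 CPM in EV, 486, 602 and 443 in EHF, 462, 624 and 447 in CDX1, and 310, 275 and 344 in EHF+CDX1. The 3 EHF+CDX1 libraries lay below the other 9. Between EHF+CDX1 and EV these regions had a median log2 difference of -0.71, beside 0.18 over all regions. Of these 67 regions 4 were called lower and 0 higher, beside 235 lower and 541 higher of all 30154 regions. The part of these surroundings in the TCF7L2 values was not tested. Around LGR4, 39 regions within 2 Mb had a median of 0.49, and around ASCL2, 70 regions had 0.65. The medians were 0.69 around LGR5, 0.15 around ZNRF3, 0.11 around LEF1, 0.09 around AXIN2, -0.04 around RNF43, -0.16 around SOX9 and -0.32 around TCF7. Of the 57 regions around TCF7, 3 were called lower and 0 higher in EHF+CDX1 against EV. Their sum in the EHF+CDX1 libraries (252 to 299 CPM) was likewise below the other 9 (301 to 429 CPM). In the same comparison 1 region was called higher around each of LGR5, LGR4 and ASCL2, and 1 lower around SOX9. Around AXIN2, RNF43, ZNRF3 and LEF1 0 were called. How often other windows of this size have such an order of libraries was not tested.

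**Figure D5:**
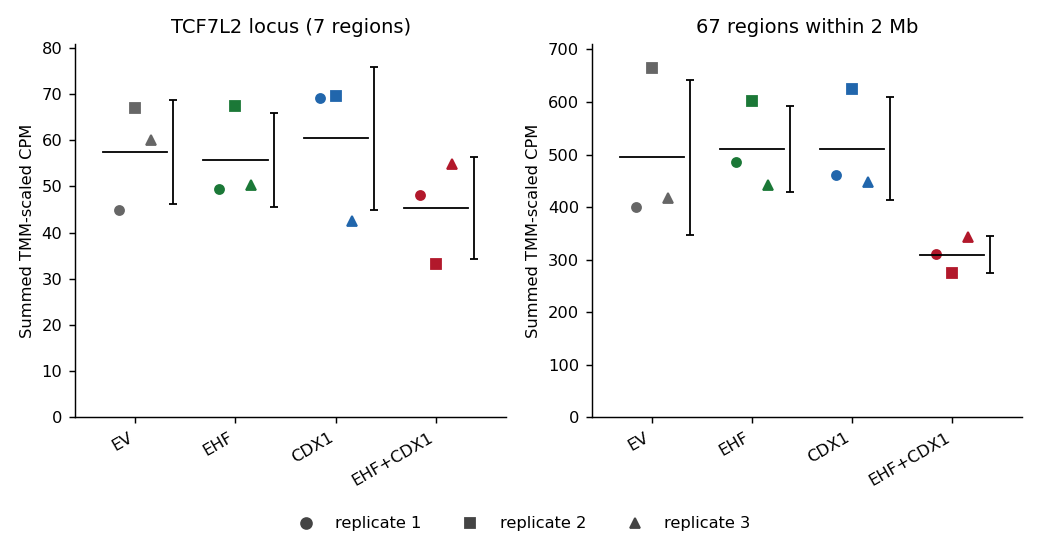
The left panel plots the TCF7L2 locus and the right panel the 67 regions within 2 Mb of it, as summed TMM-scaled CPM in each library, with group means and bars of 1 SD. In the right panel the 3 EHF+CDX1 libraries (275 to 344 CPM) lie below the other 9 (401 to 665 CPM), whereas in the left panel the groups overlap.

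ASCL2, the stem cell transcription factor, had 1 region on chromosome 11 (2268903 to 2269053), within an exon and 1610 bases from its start. Counts were 2, 1 and 1 in EV, 2, 4 and 3 in EHF, 2, 2 and 2 in CDX1, and 7, 24 and 1 in EHF+CDX1. EHF+CDX1 replicates 1 and 2 lay above every other library and replicate 3 (0.831 CPM) near the lowest. The log2 fold change against EV, 1.47 ± 0.87, was the largest of the 8 loci in that comparison and did not pass (edgeR adjusted p = 0.38). The 70 regions within 2 Mb of ASCL2 had a median of 0.65 in the same comparison, and their part in its value was not tested. Pooled over libraries, 32 counts against 4 gave a ratio of 3.31 with a counting interval of 1.17 to 12.9, which does not include the spread between libraries.

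SOX9, the HMG-box factor of crypt progenitors, had 1 region at its start on chromosome 17 (72120830 to 72121020), shared with the start of SOX9-AS1. It held 11, 10 and 6 counts in EV, 13, 34 and 12 in EHF, 9, 25 and 15 in CDX1, and 19, 42 and 13 in EHF+CDX1. The scaled levels were 9.33 ± 2.60, 12.2 ± 1.45, 12.8 ± 4.59 and 10.5 ± 0.931 CPM (SD, n = 3) and overlapped, and EHF+CDX1 differed from EV by 0.19 ± 0.41 (log2, edgeR adjusted p = 0.84). The 95% interval was -0.62 to 0.99.

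By kind of region, log2 fold changes in EHF+CDX1 relative to EV had a median of 0.95 over the 13 member regions away from starts, with 8 above 0. Over all 16214 such regions the median was 0.19 and 55.7% were above 0. The 13 member regions include the 2 that passed the filter through EHF+CDX1 alone. The 9 at own starts had a median of -0.21 with 4 above 0, beside a median of 0.17 and 59.8% above 0 over all 13940 regions at starts. Summed over the members, regions away from starts were at 55.3 ± 12.5 CPM in EV and 69.0 ± 7.69 in EHF+CDX1, and own starts at 63.2 ± 6.34 and 58.1 ± 5.32 (SD, n = 3). These sums overlapped between the groups. In 3 of 27 member regions (11.1%) the EHF+CDX1 libraries all lay above the EV libraries and in 0 all below, beside 14.8% and 7.2% of all regions. Neither count sets the members apart from the table.

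The other genes of the pathway were followed as 7 lists of 96 genes, of which 72 had a region. In EHF+CDX1 against EV, 2 of the 72 loci were called higher and 1 lower (4.17% called, median log2 fold change 0.0, beside 2.03% called and a median of 0.16 over all loci). Against EHF 1 of 72 was called higher and against CDX1 3 higher, beside 1.9 and 1.45% called of all loci. In EHF against EV, CDX1 against EV and the interaction 0 were called. There 4, 6 and 10 loci had an unadjusted edgeR p under 0.05, beside 4.69, 2.63 and 7.6% of all loci. Of the 10 measured nuclear cofactors 1 was called, TLE4, a Groucho-family corepressor that binds TCF factors. Its counts were 4, 4 and 1 in EV, 0, 0 and 7 in EHF, 1, 2 and 2 in CDX1, and 66, 184 and 30 in EHF+CDX1. All 3 EHF+CDX1 libraries stood well above the other 9. The log2 fold change was 3.56 ± 0.55 against EV (edgeR adjusted p = 0.00013), 4.42 against EHF (adjusted p = 2.5e-06) and 4.72 against CDX1 (adjusted p = 6e-06), and over 23 alternatives the value against EV ranged from 3.23 to 4.00, of which DESeq2 gave an adjusted p of 0.06. Against EHF, whose 7 counts were all in replicate 3, it ran from 3.45 without EHF replicate 2 to 8.86 without EHF replicate 3, and against CDX1 from 4.42 to 5.11 when 1 library was left out. The region at the TLE4 start, on chromosome 9 (79571558 to 79571894), supplied most of it, with 53, 139 and 29 counts in EHF+CDX1 and 0 to 5 in the other 9 libraries. That region reached 3 CPM before TMM scaling in EHF+CDX1 libraries alone. A high value in EHF+CDX1 was thus a condition of its being tested singly, and its values are a description. The pooled TLE4 locus reached 3 CPM in EV libraries too. BCL9L, a β-catenin coactivator in the same list, differed by 0.76 ± 0.27 and did not pass (adjusted p = 0.11).

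Among 10 further Wnt target genes 1 was called higher, SP5, a zinc-finger target of the pathway. SP5 had 4, 4 and 2 counts in EV, 5, 13 and 7 in EHF, 4, 7 and 1 in CDX1, and 21, 65 and 10 in EHF+CDX1, a log2 fold change of 1.85 ± 0.52 against EV (edgeR adjusted p = 0.046) and 2.01 against CDX1 (adjusted p = 0.024). The call against EV was lost in 13 of 23 alternatives, among them leaving out EHF+CDX1 replicate 1 or 2, any EV replicate, EHF replicate 1, or CDX1 replicate 1 or 3, and DESeq2. The call against CDX1 was lost without any CDX1 replicate and without EHF+CDX1 replicate 1 or 2. MYB, the other target with the smallest p, differed by 1.16 ± 0.50 (adjusted p = 0.21). Of the 12 measured ligands and secretion genes 1 was called lower, WNT2, at -1.75 ± 0.37 (edgeR adjusted p = 0.0064), with 22, 40 and 18 counts before scaling in EV, 15, 27 and 19 in EHF, 22, 18 and 12 in CDX1, and 15, 26 and 12 in EHF+CDX1. Its one region on chromosome 7 (117263879 to 117264040) lies at nuclear copies of mitochondrial genes (MTCYBP6, MTND4P6) and not at the WNT2 start, and the call was lost without EHF+CDX1 replicate 2 (adjusted p = 0.14) and with scaling by library size alone (0.98). WLS, which carries Wnt proteins to the surface, differed by 2.10 ± 0.71 and did not pass (adjusted p = 0.10).

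In the receptor, transducer, inhibitor and further stem cell lists edgeR called 0 loci in EHF+CDX1 against EV. At an unadjusted p under 0.05 these lists held 2, 1, 1 and 1 loci, beside 17.5% of all loci. Of 11 receptors and co-receptors, FZD5 differed by 0.96 ± 0.34 (adjusted p = 0.11) and LRP5 by 0.92 ± 0.39 (adjusted p = 0.20). Of 10 signal transducers, the destruction complex kinase CSNK1A1 differed by -0.59 ± 0.28 (adjusted p = 0.26) and AMER1 by -0.58 ± 0.30 (adjusted p = 0.31), and of 11 inhibitors APCDD1 by -1.21 ± 0.49 (adjusted p = 0.18) and DKK1 by -0.63 ± 0.35 (adjusted p = 0.35). Of 8 further stem cell genes, OLFM4, a secreted glycoprotein of crypt base cells, differed by 2.43 ± 0.76 against EV (adjusted p = 0.079) and was called higher against CDX1, at 2.78 (adjusted p = 0.045). OLFM4 had 3, 2 and 0 counts in EV, 6, 1 and 5 in EHF, 3, 2 and 0 in CDX1, and 9, 64 and 7 in EHF+CDX1. EHF+CDX1 replicate 2 thus held most of them, and the call was lost without that library, without any CDX1 replicate, without EV replicate 3 or EHF replicate 1, and under DESeq2. LRIG1, a negative regulator of growth factor receptors in stem cells, differed by -0.60 ± 0.32 (adjusted p = 0.32).

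The loci of the marker lists were read in the same way. KRT8 and KRT19, keratins of simple epithelium, differed by 1.10 ± 0.32 (adjusted p = 0.06) and 1.08 ± 0.35 (adjusted p = 0.087) in EHF+CDX1 against EV. KRT18 differed by 1.70 ± 0.65 (edgeR adjusted p = 0.15) and EPCAM by 0.64 ± 0.27 (0.20). The list did not move together, with CLDN7 at 0.17 ± 0.29 (0.80) and CDH1 at -0.14 ± 0.57 (0.92). Of 6 epithelial loci edgeR called 0, with 4 at an unadjusted p under 0.05, beside 17.5% of all loci. Of the blood cell loci PTPRC differed by 0.81 ± 0.51 (adjusted p = 0.42) and CD68 by 0.47 ± 0.35 (adjusted p = 0.51), and neither passed. Of 4 fibroblast loci 1 was called, PDGFRB, whose window holds the CDX1 exons and with them up to 827033 counts of introduced sequence. COL3A1 differed by 2.02 ± 0.96 and did not pass (adjusted p = 0.26).

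For the 3 members with the most counts, the loci on other chromosomes whose log2 CPM followed them most closely over the 12 libraries were LARP1 (Pearson r = 0.901), DDX25 (0.893) and AP3S1 (0.885) for TCF7L2, CCT6A (0.918), ZNF131 (0.901) and SUMF2 (0.882) for LGR4, and DNAJB1 (0.888), TMEM67 (0.839) and PPP1R13L (0.836) for RNF43. These are the highest of 1558 to 1648 loci per member, and they are given as a description, since the 12 values of a pair share library and depth. CCT6A, like LGR4, had its highest mean in EHF+CDX1, 62.8 CPM beside 42.2 to 50.3 in the other groups. LARP1, like TCF7L2, had its lowest mean there, 50.7 CPM beside 63.6 to 68.9.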

How the data were processed

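ATAC-seq libraries were made from 4 HCT116 lines with 3 libraries each. Per the submitters' processing notes and the study's methods, reads were aligned to hg38 with Subread 2.0.0, uniquely mapped reads were kept, regions were called with HOMER 4.7, and reads per region were counted with featureCounts 2.0.0. The authors deposited raw counts for 30170 regions, which were used here, and log2 CPM for 27827 of them, used for one alternative. Regions that reached 3 CPM in 1 library or more (30154) and counts pooled over 14508 protein-coding loci were tested with edgeR 4.0.16 (TMM, robust quasi-likelihood F test, Benjamini-Hochberg over all features, threshold 0.05), with 1 coefficient per group and no covariate. Locus fits used the library sizes and TMM factors of the region table. SE is the log2 fold change over the square root of F, and 95% intervals are 1.96 SE. The fits were also run on simulated counts in which only features with a mean of at least 5 counts were changed. Those runs thus cannot speak for sparser regions. Alternatives were DESeq2 1.42.0, limma 3.58.1 with voom, and other scaling, filters, windows and libraries.

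The members and lists were chosen with earlier results of these data known. Named were all members, their regions that were called, lay at their start, or were among the 2 of smallest p with a mean of at least 5 counts, in each other list the loci called and the 2 of smallest p in EHF+CDX1 against EV, and the 3 loci most correlated with each of 3 members (log2 of CPM + 1, mean of at least 50 counts, other chromosomes). One marker gene is not reported here.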

Additional observations from a re-analysis of the deposited data

How the results depend on the processing

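No member locus was called under any of the 23 alternatives for loci in any of the 6 comparisons. Of the 27 member regions, none was called in EHF against EV, CDX1 against EV or the interaction under the 21 alternatives. In EHF+CDX1 against EV the count went from 0 to 1 with the replicate block (the TCF7L2 intronic region at 119.5 kb) and ranged from 0 to 1 when 1 library was left out, the same region being called without EHF replicate 2 or EHF+CDX1 replicate 3. In EHF+CDX1 against EHF it went from 1 to 0 with DESeq2, with library size alone, with voom and quantile normalisation, with limma on the deposited log2 CPM and without replicate 2 of every group, an alternative chosen after seeing the data, and leaving out 1 library gave 0 to 1. In EHF+CDX1 against CDX1 it went from 0 to 1 with the replicate block and without introduced exons and mitochondrial matches, and leaving out 1 library gave 0 to 1, with the LGR4 region at 70.9 kb called without EV replicate 2, any EHF replicate, or EHF+CDX1 replicate 1 or 3. The main fit did not treat the replicate numbers as pairing the libraries. Of 18 same-numbered pairs 5 had a correlation of deviations above 0.1, and the 18 ran from -0.0141 to 0.305. The 36 other pairs ran lower, from -0.173 to 0.0622. Whether same-numbered libraries shared a batch was not tested, and the fit with the replicate block is given beside the main one. The block changed no other call at the members. Of the 72 pathway loci it called 8 in EHF+CDX1 against EV, beside 3 without it. Over all 14508 loci it called 1295, beside 294 without it, so the rise was not particular to the pathway loci. It added OLFM4 (edgeR adjusted p = 0.014), BCL9L (0.026), FZD5 (0.028), WLS (0.042) and FOSL1 (0.049), and of the epithelial loci KRT8 (0.0053) and KRT19 (0.015). The log2 fold changes of 4 loci with small differences between EHF+CDX1 and EV turned sign. Leaving out 1 library gave -0.05 to 0.43 for SOX9, -0.06 to 1.24 for AXIN2, -0.40 to 0.0 for ZNRF3 and -0.58 to 0.11 for TCF7, where TCF7 was at 0.08 without EHF+CDX1 replicate 1. Without replicate 2 of every group AXIN2 was at -0.3 and ZNRF3 at 0.04. ZNRF3 against CDX1 was at 0.05 with library size alone and 0.56 without regions at another gene's start. The cause was not tested. Over all regions the calls in EHF+CDX1 against EV, 776, ranged from 28 with limma on the deposited values to 1711 with the block, and over all loci, 294, from 12 with library size alone to 1295 with the block. The other region counts ranged over 0 to 66 (EHF against EV, 3 as reported), 0 to 6 (CDX1 against EV, 0), 14 to 2021 (EHF+CDX1 against EHF, 1311), 25 to 1250 (EHF+CDX1 against CDX1, 783) and 0 to 134 (interaction, 37), and the locus counts over 0 to 8 (1), 0 to 15 (3), 34 to 985 (276), 10 to 1110 (211) and 0 to 88 (0) in the same order. Library size alone moved the median of all loci from 0.0 to 0.56 against EHF and from 0.10 to 0.77 against CDX1. With it LGR4 was at 1.16 and 1.32 in these comparisons. For EHF+CDX1 against EV, 197 loci were called higher and 97 lower, and with voom 16 and 32. Member regions averaged 2.67 to 22.7 counts, beside a median of 7.08 over all regions.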
